A study of Mus musculus with 6 samples.

Results

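A group of 10 genes of the G1 control of the cell cycle was examined in Ba/F3, an interleukin-3-dependent mouse haematopoietic cell line, carrying an inducible PAX5-KIDINS220 fusion. They were the D cyclins Ccnd1, Ccnd2 and Ccnd3, the E cyclins Ccne1 and Ccne2, the kinases Cdk4 and Cdk6, and the CDK inhibitors Cdkn1b, Cdkn2c and Cdkn2d. All probe sets that the platform annotation gives to these symbols were taken, which made 26 of the 45037 probe sets tested on the array and 10 of 18193 named genes. Cdkn1b encodes p27, and Cdkn2c and Cdkn2d encode p18 and p19 of the INK4 family.

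The study asked which pathways the fusion affects. RNA was hybridised to Affymetrix Mouse Genome arrays from 3 Dox(+) samples, in which the fusion was switched on with 500 ng/mL doxycycline for 24 h, and 3 Dox(-) samples without doxycycline. Both groups were Ba/F3 cells of BALB/c background transduced with the fusion by the Retro-X Tet-on Advanced system, and both were grown in RPMI-1640 with 10% FBS and 20% WEHI-3 supernatant, a source of interleukin-3. Cells without the construct were not analysed here, so an effect of doxycycline itself and one of the fusion cannot be told apart. Whether the samples were separate cultures, and whether the line was 1 clone, is not in the labels, and the p-values below measure the spread between arrays, which may be technical. One of the Pax5 probe sets on the array was 2.06 higher in Dox(+) on the log2 scale without passing the adjusted test (limma adjusted p = 0.12) and the other differed by 0.21, and whether either matches the fusion transcript was not tested.

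The array codes in the titles fell into 2 sets. In the 2-array set, 1 Dox(+) and 1 Dox(-) array shared a code. In the 4-array set, 2 Dox(+) and 2 Dox(-) arrays had separate codes, with the Dox(+) codes before the Dox(-) codes, so that an effect of this order and one of doxycycline cannot be told apart there. The labels do not call the sets batches. The difference between Dox(+) and Dox(-) was therefore fitted over the 6 arrays with the set as a block, and was also taken within each set.

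In G1, D cyclins bind CDK4 or CDK6, and the complexes phosphorylate the retinoblastoma protein and its relatives, which frees E2F transcription factors. E2F factors switch on the E cyclins and the genes of DNA replication, and cyclin E with CDK2 completes the entry into S phase. INK4 proteins bind CDK4 and CDK6 and keep D cyclins off them, whereas p27 chiefly holds cyclin E-CDK2 inactive. In lymphoid and myeloid cells that depend on interleukin-3, the cytokine keeps D cyclins high and p27 low, and its withdrawal arrests the cells in G1.

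Promoter windows from RefSeq (GRCm38.p6; 250 bases before to 50 after the start site) were found for 7 of the 10 genes, 9 windows in all. Ccnd1, Ccnd2 and Ccne2 had no entry. Each window was searched on both strands for E2F letters (TTTCCCGC, TTTCGCGC, TTTGCCGC or TTTGGCGC), for the E-box CACGTG, which MYC and related factors bind, and for the STAT5 letters TTCNNNGAA. Among 32851 windows of the same length, 2.265% held the E2F letters, 7.15% the E-box and 8.298% the STAT5 letters. The Cdk4 window held 4 E-boxes, which began 172, 118, 98 and 11 bases before the start site, and 8 of all windows (0.0244%) held 4 or more. Cdk6 had 1 E-box, beginning 220 bases before the start, and 1 of the 2 Cdkn2c windows had 1 in the transcribed part. None of the 9 windows held the E2F or STAT5 letters as searched. The 250 bases before the start are printed for Cdk4, Ccne1 and Cdkn1b, the 3 genes with a window whose brightest probe set differed most between the array sets, with CACGTG in capitals and the rest in lower case.
Cdk4, chr10:127063285-127063534, plus strand: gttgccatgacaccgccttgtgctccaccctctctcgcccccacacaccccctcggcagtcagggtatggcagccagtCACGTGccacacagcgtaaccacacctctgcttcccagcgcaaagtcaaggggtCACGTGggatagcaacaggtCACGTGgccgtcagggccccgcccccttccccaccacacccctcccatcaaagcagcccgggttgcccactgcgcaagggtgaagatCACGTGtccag
Ccne1, chr7:38107491-38107740, minus strand: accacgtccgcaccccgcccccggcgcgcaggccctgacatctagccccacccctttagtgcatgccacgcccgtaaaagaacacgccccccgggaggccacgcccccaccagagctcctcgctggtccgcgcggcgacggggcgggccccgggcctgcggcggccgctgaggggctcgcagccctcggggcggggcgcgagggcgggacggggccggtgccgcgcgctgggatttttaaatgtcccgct
Cdkn1b, chr6:134920151-134920400, plus strand: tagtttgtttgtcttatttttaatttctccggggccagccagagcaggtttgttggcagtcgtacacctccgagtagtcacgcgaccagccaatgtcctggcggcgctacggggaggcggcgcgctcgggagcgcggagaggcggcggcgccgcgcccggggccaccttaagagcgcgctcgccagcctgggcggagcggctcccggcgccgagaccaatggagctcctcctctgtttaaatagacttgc
Cdk4 is the only one of the 3 with capitals.

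None of the 26 probe sets passed the test between Dox(+) and Dox(-), with an adjusted p under 0.05 in limma, either over the 6 arrays with the block or in the 4-array set alone. Across all probe sets, the block fit called 26 (0.0577%) higher and 13 (0.0289%) lower, and the 4-array set called 45 (0.0999%) higher and 11 (0.0244%) lower. Both fits had 0 calls when any 1 array of the 4-array set was left out. At an unadjusted p under 0.05, the block fit had 4 of the 26, all lower in Dox(+), and 4250 of all 45037 probe sets in either direction. The 4250 were not split by direction. The 26 fitted differences had a median of -0.03 on the log2(signal + 16) scale, against -0.01 over all probe sets, with 9 above and 17 below 0. For 23 of the 26, the 95% interval of the difference lay within 1.5-fold either way. A missed threshold does not show that the genes kept the same level, and in RNA from whole cultures, fewer cells with a transcript and less of it per cell cannot be told apart.

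In none of the 26 probe sets did all 3 Dox(+) arrays lie on one side of all 3 Dox(-) arrays, against 3.99% of all probe sets with Dox(+) under Dox(-) and 3.75% with Dox(+) above. Within the 4-array set, both Dox(+) arrays were under both Dox(-) arrays in 8 of the 26 probe sets, against 21.3% of all, and above them in 4, against 19.1% of all. In 13 of the 26, which come from 10 genes and are not independent, the difference had opposite signs in the 2 sets. The share over all probe sets was not counted. The test of whether the response differed between the sets called 0 probe sets (0%) of all tested in limma, and 2697 of them but 0 of the 26 had an unadjusted p under 0.05.

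**Figure D1:**
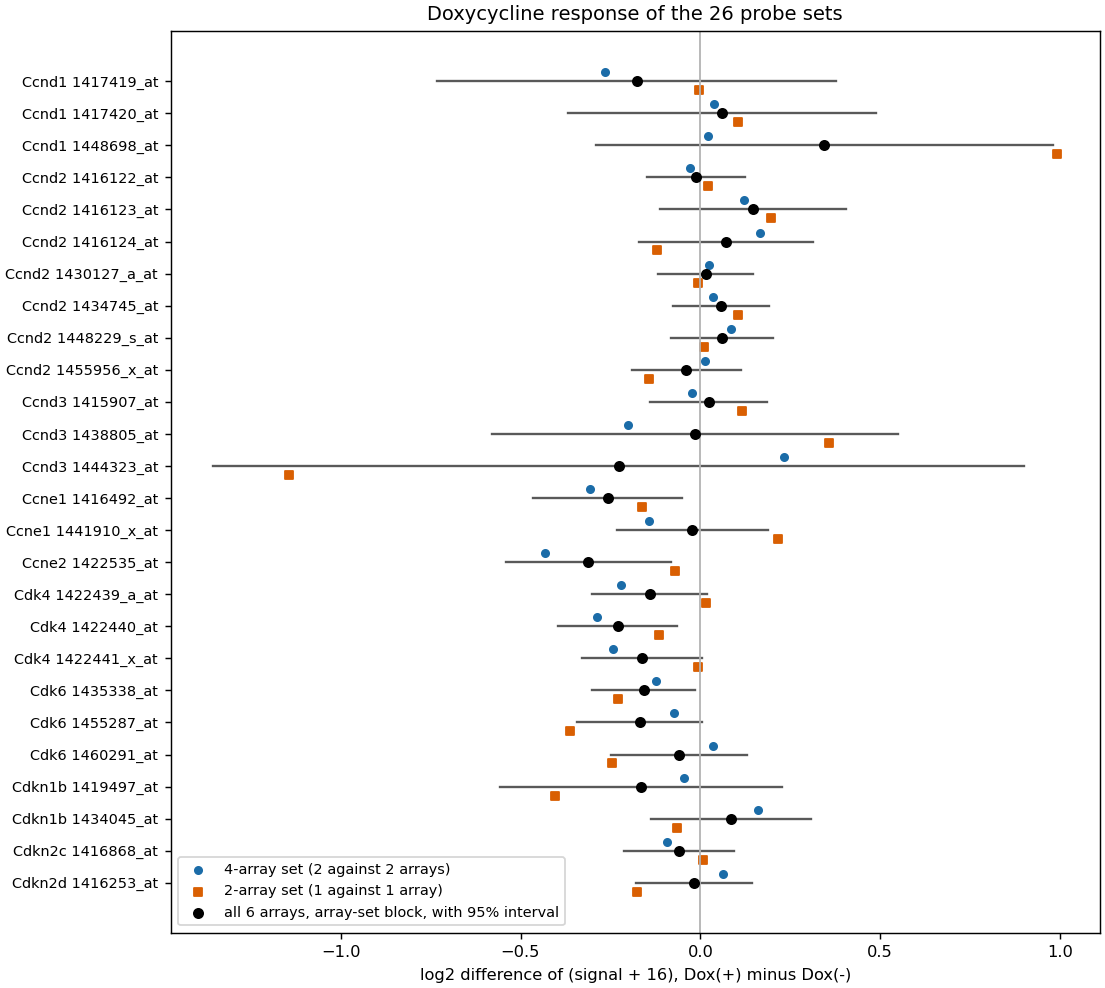
Log2 difference of (signal + 16), Dox(+) minus Dox(-), for each of the 26 probe sets. Black points are the fits over 6 arrays with the array-set block and bars their 95% intervals; blue circles are the 4-array set (2 against 2 arrays) and orange squares the 2-array set (1 against 1, no test). E cyclin and CDK black points all lie below 0 (Ccne1 1441910_x_at at 0.00 with median centring), and none of the 26 passed the adjusted test.

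The D cyclins carry mitogen signals to CDK4 and CDK6, and none of their probe sets was called between the treatments. Ccnd2 (Entrez 12444), the D cyclin best known from lymphoid cells, had 5292 and 5459 signal units on the Dox(+) arrays of the 4-array set and 6440 on that of the 2-array set, by 1416122_at. Its Dox(-) arrays had 5344 and 5630 in the 4-array set, against 6344 in the 2-array set. The groups overlapped, and the highest array of each group was in the 2-array set. The means were 5730 ± 621 in Dox(+) and 5773 ± 515 in Dox(-) (SD, n = 3 each), and the fitted fold was 0.992 (95% interval 0.902 to 1.09). The 6 other Ccnd2 probe sets had fitted log2 differences between -0.04 and 0.15, none called.

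Ccnd3 (Entrez 12445), a D cyclin of lymphocytes, had 2461, 2764 and 3341 signal units on the Dox(+) arrays and 2753, 2552 and 3080 on the Dox(-) arrays, by 1415907_at, with the 2-array set last in each group. The groups overlapped, and the fitted fold was 1.02 (0.908 to 1.14). The dimmer Ccnd3 probe sets had wider intervals, with folds of 0.990 (0.669 to 1.46) for 1438805_at and 0.854 (0.391 to 1.87) for 1444323_at. Ccnd1 (Entrez 12443), the D cyclin typical of adherent cells, had lower values, with 1417420_at at 170, 157 and 110 on the Dox(+) arrays and 146, 172 and 101 on the Dox(-) arrays in the same order. Its fitted fold was 1.04 (0.775 to 1.40), a wide interval, and its probe set 1417419_at, between 5.69 and 13.5 on the 6 arrays, was the only one of the 26 under the limit used here for dim probe sets (mean signal 36.3). The remaining Ccnd1 probe set, 1448698_at, had 105, 108 and 123 in Dox(+) against 113, 97.1 and 54.1 in Dox(-), so its log2 difference was 0.02 within the 4-array set, against 0.99 within the 2-array set. Its fitted fold was 1.27, with a wide interval (0.818 to 1.97). Of the 13 D cyclin probe sets, 8 had fitted differences above 0 and 5 below, with a median of 0.02.

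The E cyclins activate CDK2 at the end of G1. Ccne2 (Entrez 12448) had 641 and 544 signal units on the Dox(+) arrays of the 4-array set and 1184 on that of the 2-array set, against 826 and 779 and then 1244 on the Dox(-) arrays (1422535_at). Within the 4-array set both Dox(+) arrays were the lower ones, and in the 2-array set Dox(+) was slightly under Dox(-), while the groups as a whole overlapped. The means were 789 ± 345 in Dox(+) and 949 ± 256 in Dox(-) (SD, n = 3 each). The fitted log2 difference was -0.31 (SE 0.10, fold 0.806, 95% interval 0.688 to 0.944) and did not pass after adjustment over all probe sets in limma (adjusted p = 0.38). The log2 difference was -0.43 in the 4-array set, against -0.07 in the 2-array set, and the test of this gap gave an adjusted p of 0.84 in limma.

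Ccne1 (Entrez 12447) had 330, 368 and 1263 signal units on the Dox(+) arrays, against 458, 412 and 1415 on the Dox(-) arrays, by 1416492_at, the 2-array set last. The Dox(+) array was the lower in each set, but the spread between the sets was far larger. The fitted log2 difference was -0.26 (SE 0.09; limma adjusted p = 0.42). The brighter probe set, 1441910_x_at, had 657, 698 and 2367 in Dox(+) and 792, 708 and 2034 in Dox(-). Its log2 difference was -0.14 in the 4-array set, with both Dox(+) arrays the lower ones, against 0.22 in the 2-array set. The fitted difference was -0.02 (SE 0.09), or 0.00 with median centring.

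Cdk4 and Cdk6 are the catalytic partners of the D cyclins. All 3 Cdk4 and all 3 Cdk6 probe sets had fitted differences below 0, with a median of -0.16 over the 6, and none passed the adjusted test. Cdk4 (Entrez 12567) had 3066, 3120 and 7447 signal units in Dox(+), against 3860, 3470 and 7476 in Dox(-), by 1422441_x_at, the 2-array set last. Both Dox(+) arrays of the 4-array set were under both Dox(-) arrays, and the 2-array set was level. The log2 differences were -0.24 in the 4-array set, against -0.01 in the 2-array set. For 1422440_at, the fitted fold was 0.853 (0.761 to 0.957; limma adjusted p = 0.37).

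Cdk6 (Entrez 12571), the kinase more used in haematopoietic cells, had 8757, 8301 and 6849 signal units in Dox(+), against 9334, 9228 and 8035 in Dox(-), by 1435338_at, the 2-array set last. Dox(+) was lower in both sets, and over the 6 arrays the groups overlapped because the Dox(-) array of the 2-array set lay under both Dox(+) arrays of the 4-array set. The fitted fold was 0.896 (0.811 to 0.990), with an adjusted p of 0.48 in limma. The 1460291_at probe set had a fitted log2 difference of -0.06 (SE 0.08), which turned to 0.03 without either array of the 2-array set.

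None of the inhibitors passed the test. Cdkn1b (Entrez 12576) had 2228, 2481 and 781 signal units in Dox(+), against 1875, 2359 and 819 in Dox(-), by 1434045_at, the 2-array set last. The groups overlapped, and the fitted fold was 1.06 (0.909 to 1.24). Its other probe set, 1419497_at, had 164, 199 and 161 in Dox(+), against 205, 171 and 218 in Dox(-), and went the other way, with a fold of 0.892 (0.679 to 1.17). Cdkn2c (Entrez 12580) had 1841, 1948 and 2047 in Dox(+) and 2122, 1924 and 2035 in Dox(-), with a fold of 0.960 (0.863 to 1.07). Cdkn2d (Entrez 12581) had 1929, 2028 and 1725 in Dox(+) and 1926, 1862 and 1952 in Dox(-), with a fold of 0.988 (0.883 to 1.10). Both INK4 genes thus stayed in a narrow band on all arrays, and the groups overlapped in each.

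**Figure D2:**
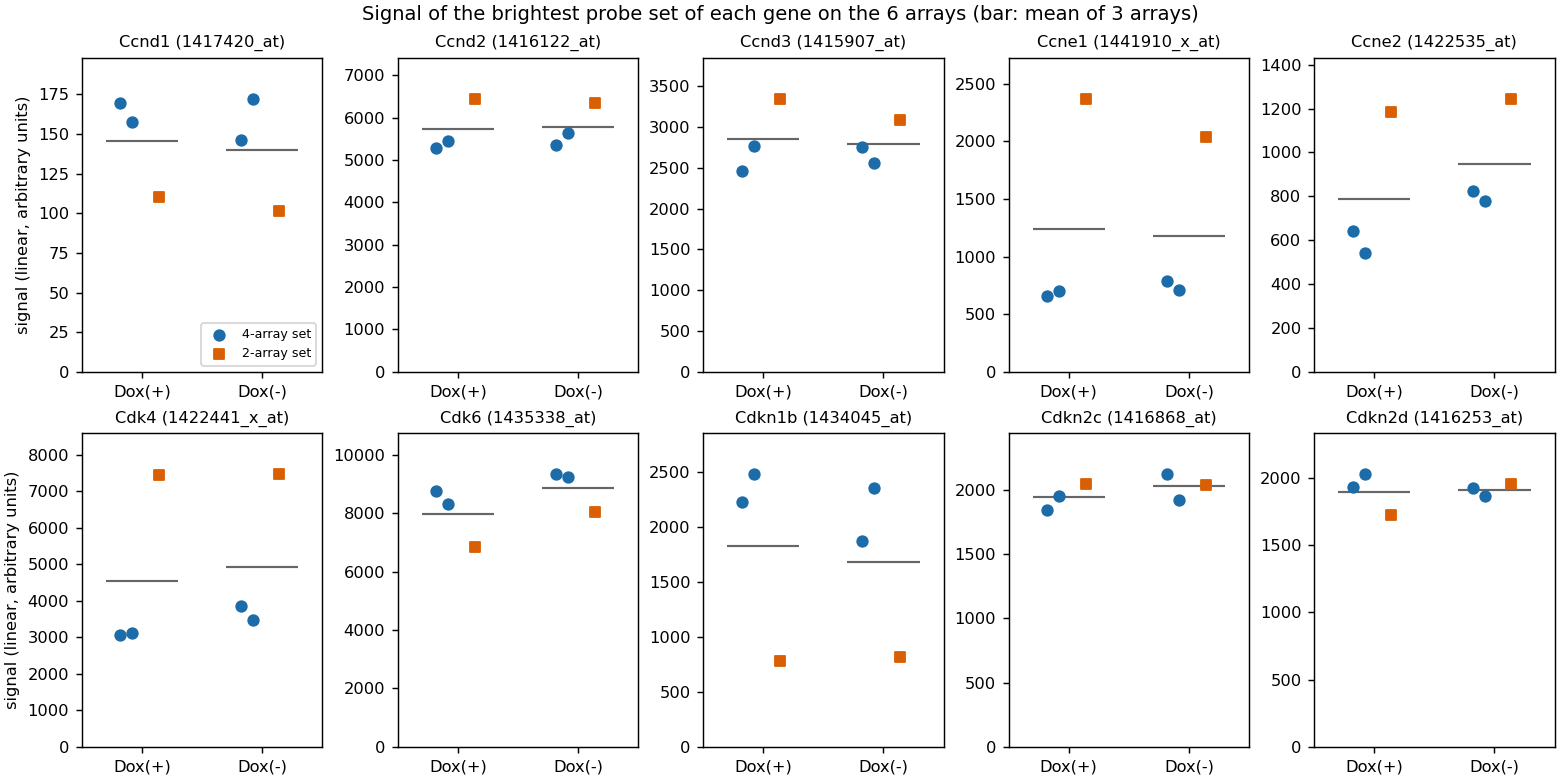
Signal (linear, arbitrary units) of the brightest probe set of each gene on the 6 arrays, with Dox(+) left and Dox(-) right. Blue circles are the 4-array set, orange squares the 2-array set and lines the means of 3 arrays; the squares stand far above the circles for Ccne1 and Cdk4, far below them for Cdkn1b, and among or near them for Cdkn2c and Cdkn2d.

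Ccne1, Ccne2, Cdk4 and Cdkn1b 1434045_at differed more between the array sets than between the treatments. This did not hold for all. Cdkn2c was at -0.06 in both comparisons, Ccnd1 1448698_at at 0.30 between the sets, against 0.35 between the treatments, and Cdkn1b 1419497_at at -0.02, against -0.16. With doxycycline in the fit, 16 of the 26 probe sets differed between the sets in limma, 5 higher and 11 lower in the 4-array set, against 13.4% of all probe sets higher and 11.4% lower. By the brightest probe set, 7 of the 10 genes differed, 2 higher and 5 lower, against 16.8% of all genes higher and 15.8% lower. All 4 arrays of the 4-array set were above both arrays of the 2-array set in 6 of the 26, against 21.9% of all probe sets, and under both in 12, against 17.7% of all. Refitted without dim probe sets, 17 of the 25 left differed, against 44.8% of all those left.

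Ccne1, Ccne2 and Cdk4 were lower in the 4-array set. The log2 difference for Ccne1 was -1.74 (SE 0.10, limma adjusted p = 2.0e-06) by 1416492_at, with means of 392 ± 55.4 signal units in the 4-array set (SD, n = 4) and 1339 in the 2-array set (n = 2). By 1441910_x_at it was -1.60 (SE 0.10). Ccne2 differed by -0.80 (SE 0.11, limma adjusted p = 3.6e-04), with means of 697 ± 129 and 1214 signal units in the same order. The 3 Cdk4 probe sets differed by -1.05, -1.20 and -1.15, and 1422441_x_at averaged 3379 ± 367 signal units in the 4-array set, against 7462 in the 2-array set. For each of these 6 probe sets, every array of the 4-array set lay under both arrays of the 2-array set.

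Cdkn1b and Cdk6 were higher in the 4-array set. The Cdkn1b probe set 1434045_at averaged 2236 ± 262 signal units there, against 800 in the 2-array set, a log2 difference of 1.46 (SE 0.10, limma adjusted p = 7.8e-06). Its other probe set, 1419497_at, dimmer at 161 to 218 on all arrays, differed by -0.02, so the probe sets of this gene disagree. The 3 Cdk6 probe sets differed by 0.26, 0.36 and 0.78, all called. Ccnd3 also had probe sets that disagree, at -0.29 for 1415907_at and 1.59 for the dimmer 1438805_at, both called. Ccnd2 was called lower by 4 of its 7 probe sets, with log2 differences of -0.21 to -0.55. Cdkn2c (-0.06, 95% interval -0.22 to 0.10) and Cdkn2d (0.08, -0.09 to 0.25) were not called, nor was any Ccnd1 probe set. The brightest of Ccnd1, 1417420_at, was at 0.54 (95% interval 0.09 to 0.997, limma adjusted p = 0.087). Every array of the 4-array set lay above both arrays of the 2-array set for it.

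Some of these calls moved with the processing. Of the 16 calls, 10 held under every setting tried that kept their probe set, namely both Ccne1 probe sets, Ccne2, the 3 of Cdk4, and Cdkn1b 1434045_at, Cdk6 1460291_at, Ccnd2 1455956_x_at and Ccnd3 1438805_at. Centring each array on its median turned the median difference over all probe sets between the sets to -0.07, against 0.05 as deposited, and the calls for Cdk6 1435338_at and 1455287_at were then lost. All 6 other calls (these 2, Ccnd3 1415907_at and Ccnd2 1416122_at, 1434745_at and 1448229_s_at) were lost without the Dox(+) array of the 2-array set, with log2 differences of 0.21 and 0.21 for Cdk6, -0.22 for Ccnd3 and -0.21 to -0.27 for Ccnd2.

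**Figure D3:**
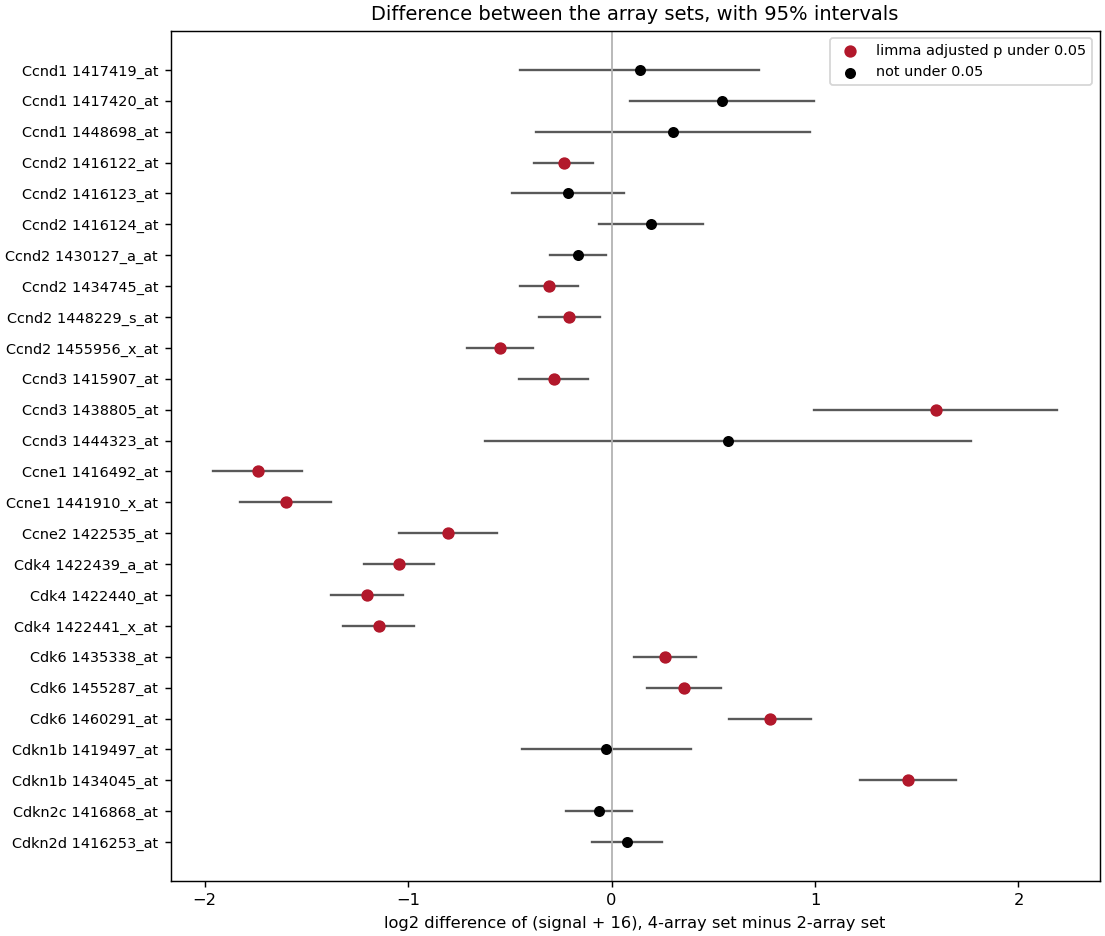
Log2 difference of (signal + 16), 4-array set minus 2-array set, for the 26 probe sets, with 95% intervals; red points have a limma adjusted p under 0.05. Ccne1, Ccne2 and Cdk4 lie left of 0, Cdk6, Cdkn1b 1434045_at and Ccnd3 1438805_at right of it, and both INK4 genes near 0.

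The wider cell-cycle genes were read by their brightest probe set. Of 15 measured E2F target genes, 13 were called lower in the 4-array set and 0 higher, with a median log2 difference of -1.08, beside the 16.8% higher and 15.8% lower of all genes. All 15 were above the limit for dim probe sets. Refitted without dim probe sets, 44.8% of all probe sets left were called in either direction. Mybl2, a transcription factor of S phase, was at -2.12 and Rrm2, a ribonucleotide reductase subunit, at -2.03. Of the 13 pocket protein and E2F genes, 4 were called higher and 6 lower, on the same background. Rbl2 (p130), a pocket protein, was at 1.39, and E2f1 at -1.12. The other genes called higher were Rb1 at 0.67, E2f8 at 0.64 and Tfdp2 at 0.60. In the CDK2 module, Ccna2, the S-phase cyclin, was at -1.31. Of the 12 cytokine signalling genes, on the same background, 5 were called higher, among them Jak2 at 1.25, and 2 lower, among them Pim2 at -2.89. Rbl2, E2f1, E2f8, Tfdp2, Mybl2 and Pim2 were picked after their values were seen. Myc was at 0.07 and not called.

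Between Dox(+) and Dox(-), 0 genes of the 6 lists were called with the block. The 15 E2F targets had a median log2 difference of -0.24 with the block, against 0.00 over all genes, and all 15 fitted values lay below 0. With the mean of all probe sets of a gene, 13 of the 15 lay below 0. The median was -0.34 in the 4-array set, with 15 of 15 below 0, and -0.02 in the 2-array set, with 10 of 15 below 0. These genes are regulated together and are not independent of each other. The smallest p in this list belonged to Pola1, a subunit of DNA polymerase alpha, at -0.55 (SE 0.10; limma adjusted p = 0.14), and to Rrm2, at -0.36 (SE 0.08; 0.23). Pola1 turned to 0.05 with the mean of its probe sets. Myc was at -0.36 (SE 0.08; limma adjusted p = 0.18), with 4448, 3879 and 4192 signal units in Dox(+), against 5766, 5366 and 5005 in Dox(-), the 2-array set last. All 3 Dox(+) arrays were under all 3 Dox(-) arrays for Myc, and the same held for Cdkn1c, while for Fbxo4 all 3 lay above. For every other gene of the 6 lists the groups overlapped. Of all probe sets, 3.99% had all Dox(+) arrays under and 3.75% had them above.

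The 13 pocket protein and E2F genes had a block median of -0.02, with 6 above and 7 below 0. Rb1, the retinoblastoma gene, was at 0.27 (SE 0.07) and E2f7, a repressor E2F, at -0.22 (SE 0.08). The 6 genes of the CDK2 module and CDK activation had a median of -0.05, with Ccna2 at -0.33 (SE 0.12) and Mnat1, of the CDK-activating kinase, at 0.13 (SE 0.08). Ccna2 was at -0.51 in the 4-array set, against 0.01 in the 2-array set, and Mnat1 at 0.04, against 0.31. The 4 other CDK inhibitors had a median of -0.13, with 2 above and 2 below 0. Cdkn1c, dim on all arrays, was at -0.79 (SE 0.35). Cdkn2b was at -0.29 (SE 0.15), with -0.08 in the 4-array set, against -0.72 in the 2-array set. Cdkn1a was at 0.04 (SE 0.09). Cdkn2a was at 0.16 (SE 0.18), with 0.43 in the 4-array set, against -0.37 in the 2-array set. The 10 genes for the turnover of G1 regulators were at a median of 0.00, with Fbxo4, an F-box gene, at 0.29 (SE 0.11). Cks1b, the partner of SKP2 in p27 degradation, was at -0.14 (SE 0.08), with -0.21 in the 4-array set, against 0.00 in the 2-array set. Among the 12 cytokine signalling genes, Jak2, the kinase of the interleukin-3 receptor, rose in the 4-array set by 0.73 (limma adjusted p = 0.026). It was at -0.05 in the 2-array set and was not called with the block (0.47, SE 0.14). The gap between its responses in the sets was 0.78 and was not called in limma. The call in the 4-array set was lost when any 1 of its arrays was left out. Its signals were 3453, 3500 and 1105 in Dox(+), against 2032, 2137 and 1141 in Dox(-), the 2-array set last.

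**Figure D4:**
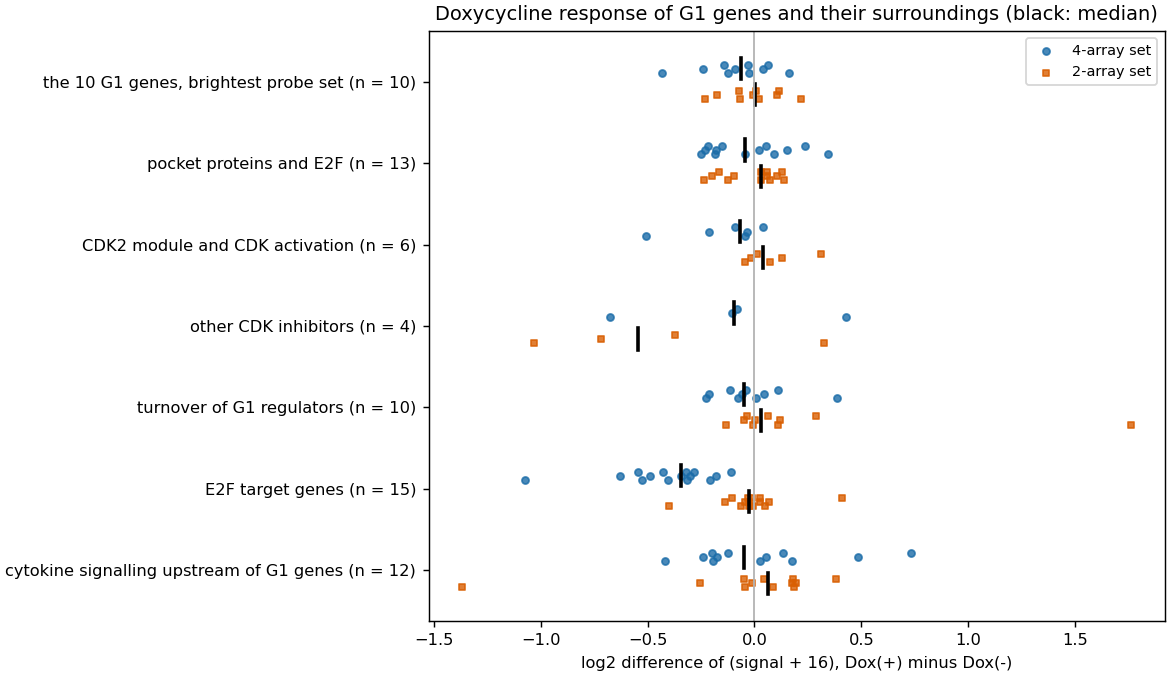
Log2 difference of (signal + 16), Dox(+) minus Dox(-), for the brightest probe set of each gene in the 10 G1 genes and 6 lists around them. Blue circles are the 4-array set, orange squares the 2-array set and black lines the list medians; the E2F targets lie below 0 in the 4-array set (median -0.34) and around 0 in the 2-array set (median -0.02).

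Cell markers and array quality were set beside the array sets. By the brightest probe set, the sets did not overlap in 46.1% of all genes. All 6 markers of the cell line were above the limit for dim probe sets on every array. In all 6 the sets did not overlap, with Cd48 lower and the other 5 higher in the 4-array set, and with summed signals of 62983 to 69861 in the 4-array set, against 31579 to 32651 in the 2-array set. Csf2rb, the shared receptor chain for interleukin-3, had 20153 to 22447 in the 4-array set, against 8398 to 9119 in the 2-array set. Of the 7 B lineage markers measured, 1 (Cd79b) was above that limit on every array, the sets did not overlap in 2, and the sums were 792 to 962 and 623 to 747 in the same order. The 6 T cell markers summed to 662 to 903 and 392 to 583, with no overlap of the sets in 2 of them. The 6 of monocytes and macrophages summed to 1592 to 1810 and 1165 to 1266, with no overlap in 4, and the 5 of fibroblasts to 109 to 156 and 112 to 137, with overlap in all. No marker was at 0 on all arrays. By treatment, the summed markers of the cell line ran from 32651 to 69861 in Dox(+) and from 31579 to 63346 in Dox(-). The 3'/5' signal ratio of Gapdh was 0.637 to 0.680 in the 4-array set, against 0.684 to 0.688 in the 2-array set, and that of actin 1.18 to 1.24 and 1.17 to 1.18, which overlap. The part of these measures in the differences between the sets was not tested.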

How the data were processed

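The deposited values are linear signal intensities per probe set of 6 arrays, which the submitters' processing notes credit to Affymetrix Expression Console. For its version and algorithm, nothing is given in the sources used here. All arrays had the same mean once 2% was trimmed at both ends, so shifts of total mRNA are hidden. The number of arrays limits the precision. Groups came from the source names, and replicate numbers, given in accession order, paired nothing.

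Here, 64 control probe sets of 45101 were left out. Of the other 45037, 34945 had 1 gene symbol, 932 several and 9160 none. Values were transformed to log2(signal + 16), which understates changes of dim probe sets, and every probe set was fitted with limma 3.58.1 in R 4.3.3 (lmFit, eBayes with a mean-variance trend), two-sided, with doxycycline and the array set as terms and p-values adjusted by Benjamini-Hochberg over all 45037 probe sets (threshold 0.05). The 4-array set alone, the interaction and the set coefficient were fitted likewise; the 2-array set gives ratios without a test. The fit was tested on simulated data. A probe set was taken as dim where its mean signal was in the lowest 40% of all.

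The members, the 6 lists, the tests and the rule for named genes (all member probe sets, and in each list the 2 genes with the smallest p in the block fit) were chosen with earlier results of these data known. Alternatives were no block, median centring, quantile normalization, a robust prior, no trend, no dim probe sets, pseudocounts of 1 and 64, 1 or the mean of all probe sets per gene, no _s_at, _x_at or _a_at probe sets, array weights, a threshold of 0.10 and leaving out each array. The planned comparison of the proteins was not run.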

Additional observations from a re-analysis of the deposited data

How the results depend on the processing

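Every alternative kept 0 of the 26 probe sets called between Dox(+) and Dox(-), with the block, in the 4-array set or in the interaction. Over all probe sets, the 39 calls with the block became 0 with no array-set block, 0 with no trend, 110 with no dim probe sets, 62 with a pseudocount of 1, 7 with a pseudocount of 64, 13 with the mean of all probe sets per gene and 88 at 0.10. Leaving out each array in turn gave 0 to 37 calls, with 0 without any single array of the 4-array set. The 56 calls in the 4-array set alone became 0 with no trend, 95 with a robust prior, 367 with no dim probe sets, 181 with a pseudocount of 1, 7 with a pseudocount of 64, 12 with the mean per gene, 208 at 0.10 and 0 without any of its arrays. The interaction had 11 calls with no dim probe sets and 4 with a pseudocount of 1. Between the array sets, 6043 calls higher and 5133 lower in the 4-array set became 3148 and 2959 with the highest probe set per gene, and 2593 and 2371 with the mean per gene. The lower calls were 3187 with no trend, 3346 with no _s_at, _x_at or _a_at probe sets, and 3364 to 4773 when each array was left out, the lowest without the Dox(+) array of the 2-array set. Of the calls, 54.1% were higher, against 43.2% with median centring and 48.5% with quantile normalization. Among the 26, the 5 higher calls became 3 with median centring, 3 with no trend, 2 with the highest probe set per gene, 3 with the mean per gene and 3 to 5 without single arrays. The 11 lower calls became 7, 5 and 4 with no trend, the highest probe set and the mean per gene, 6 with no _s_at, _x_at or _a_at probe sets, and 7 to 9 without single arrays. With the mean per gene, the differences between the sets reversed to 0.63 for Ccnd3 and to -0.10 for Rb1. Between the treatments Pola1, not called, turned to 0.05 with the mean per gene, and 13 of the 15 E2F targets were then below 0. The cause of these changes was not tested. Only in the 2-array set did 1 Dox(+) and 1 Dox(-) array share a code. The arrays of the 4-array set had separate codes, so no paired analysis over all arrays was possible. The 4-array fit could not change with the block or the arrays of the other set.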
